A study of Mus musculus with 6 samples.

Results

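Collagens are the triple-helical proteins of the extracellular matrix, and the collagen genes of bEnd.3 endothelial cells are described here with and without added mitochondria. The members are the protein-coding genes of the deposited table whose names read Col, a number, a and a number, which gave 44 of its 55401 genes. They were sorted by the assembly each chain is known for: 11 fibrillar genes, 6 of the basement membrane type IV, 6 of the beaded-filament type VI, 9 of the fibril-associated FACIT group, 2 multiplexins, 3 network-forming genes, 4 transmembrane genes, 1 anchoring-fibril gene and 2 others. The mitochondria group was wild-type bEnd.3 cells, a mouse line derived from brain endothelium, cultured for 24 h after receiving, in 100 ul of medium, mitochondria that had been prepared from MLO-Y4, a mouse line used as a model of osteocytes. The control group was the same cells given that volume of medium alone. Each group had 3 RNA-sequencing libraries, and nothing in the labels says that these came from separate cultures, so the spread behind every p-value is that among these libraries and may be technical. A brain-derived line stands here for the vessels of cortical bone that the study's title names.

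Each collagen chain winds with others of its kind into a triple helix in the endoplasmic reticulum, after prolines and lysines have been hydroxylated, and is then exported and trimmed. Fibrillar collagens are laid down as fibrils by fibroblasts and bone cells, while endothelial cells are known for type IV collagen, the sheet-like scaffold of the basement membrane on which they sit. In the type IV network of most vessels the chains made from Col4a1 and Col4a2 assemble together.

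The libraries held between 65394770 and 73376834 estimated counts each, with 22452 to 22875 genes detected. The endothelial label held in part. Of 12 listed endothelial markers 4 had a mean of at least 1 FPKM, a fragment count scaled by transcript length and library size, led by Eng and Flt1, while Cldn5 was listed at 0 in every library and Pecam1 and Cdh5 averaged 0.175 and 0.0672 FPKM. The summed level of the 12 was 115.0 to 120.2 FPKM in the mitochondria libraries and 112.9 to 117.1 FPKM in the control libraries. Of 10 markers of fibroblasts or mural cells, which make fibrillar collagens, 3 had a mean of at least 1 FPKM. These were Pdgfrb, Pdgfra and Acta2, at 16.7, 13.9 and 1.08 FPKM, while Dcn, Lum, Postn and Thy1 were below 0.25 FPKM on average. Of 10 markers of the osteocyte lineage of the source line, 2 had a mean of at least 1 FPKM. These were Alpl, at 14.9 FPKM on average, and Runx2, at 3.92 FPKM, both with counts in every library of either group. Dmp1, Mepe and Ibsp were listed at 0 in all 6 libraries. Genes of pancreatic acinar cells, which neither line should express, differed between the groups: the 9 listed summed to 0.0883 to 0.378 FPKM with mitochondria and 58.7 to 107.4 FPKM in control, and their part in the collagen values was not tested.

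Type IV collagen dominated the collagen mRNA of these cells. Col4a1 and Col4a2 alone made up 51.3% to 53.7% of the summed collagen FPKM of a library. The type IV genes together summed to 311.5, 374.6 and 311.0 FPKM in the mitochondria libraries, against 290.7, 375.3 and 300.1 FPKM in the control libraries. The fibrillar genes summed to 124.2, 152.1 and 117.1 FPKM in the mitochondria libraries, against 120.8, 176.8 and 111.5 FPKM in the control libraries. Both sums overlapped between the groups, and replicate 2 of each group was its highest library. The type VI genes followed, at 77.8 ± 5.3 FPKM with mitochondria and 71.9 ± 4.94 FPKM in control (SD, n = 3 each). All collagens together stood at 590.6 ± 61.9 FPKM with mitochondria and 582.9 ± 93.5 FPKM in control (SD, n = 3 each). The order of the 3 leading classes, type IV, fibrillar and type VI, was the same in each of the 6 libraries.

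**Figure D1:**
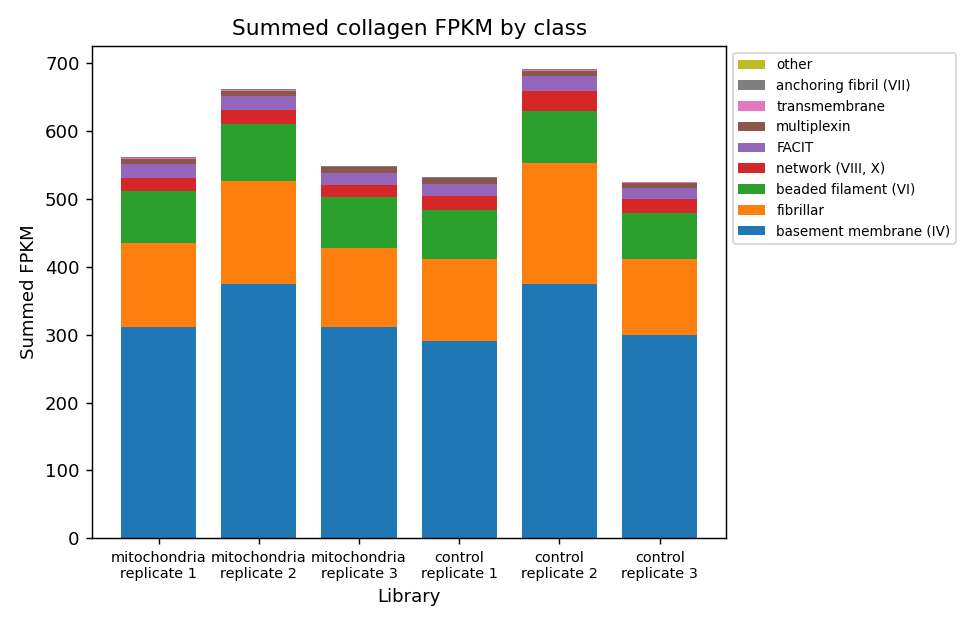
Summed FPKM of the collagen genes in each library, stacked by class, with the 3 mitochondria libraries left of the 3 control libraries. Type IV collagen takes 54.3% to 57.1% of every bar, and replicate 2 is the tallest bar of each group, at 661.7 FPKM with mitochondria and 690.7 FPKM in control.

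Levels spanned from well over 100 FPKM to none. In all, 11 of the 44 genes had a mean of at least 10 FPKM over the 6 libraries and 15 a mean of at least 1 FPKM, the minimum set for the test. Just inside that minimum were Col23a1 and Col14a1, at 1.11 and 1.05 FPKM, and just outside it was Col7a1, the collagen of anchoring fibrils beneath epithelia, at 0.991 FPKM. Of the 29 genes below it, 21 had counts in some library and 8 had none in any. The 8 were the FACIT genes Col9a1, Col9a2, Col19a1 and Col22a1, the type VI genes Col6a4, Col6a5 and Col6a6 and the transmembrane Col13a1. A sequenced fragment appears to be worth about 4 deposited counts, so a count of 0 allows up to 12 counts, or 0.164 to 0.183 CPM (counts scaled to the library total), covering counting error only.

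**Figure D2:**
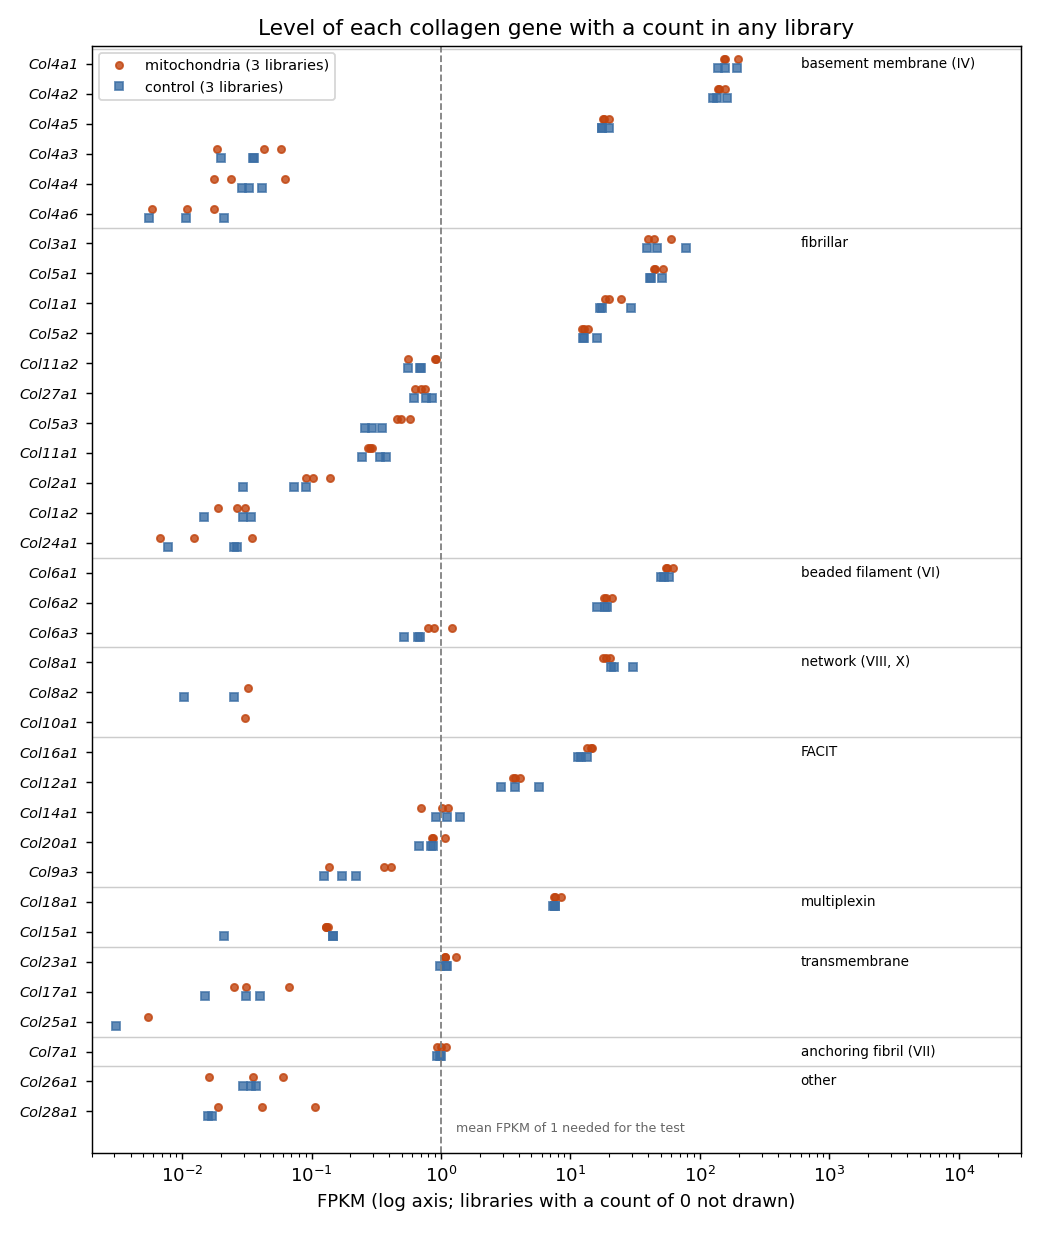
FPKM of the 36 collagen genes with a count in any library, on a log axis, with 1 circle for each mitochondria library and 1 square for each control library, grouped by class. In the type IV class Col4a1, Col4a2 and Col4a5 lie above 10 FPKM and the other 3 members below 0.1 FPKM.

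Within the type IV class the genes split into a high and a near-silent set. Col4a1 (ENSMUSG00000031502, chromosome 8, 11198423 to 11312826 in GRCm38), the most abundant collagen, had 153.4, 197.2 and 155.5 FPKM in the mitochondria libraries, against 138.6, 192.3 and 155.8 FPKM in the control libraries. Col4a2 (ENSMUSG00000031503, chromosome 8, 11312805 to 11449287) had 140.0, 157.5 and 137.2 FPKM in the mitochondria libraries, against 134.6, 163.1 and 126.5 FPKM in the control libraries. Replicate 2 was the highest library of each group for both genes, and the groups overlapped. The edgeR quasi-likelihood test gave Col4a1 a fold change of 1.03 (95% interval 0.802 to 1.32, adjusted p = 0.925) and Col4a2 a fold change of 1.02 (95% interval 0.848 to 1.22, adjusted p = 0.946). Col4a5, whose chain belongs to the network of kidney and other specialised basement membranes, was on the X chromosome (141475385 to 141689234) and stood at 18.0, 19.8 and 18.2 FPKM with mitochondria, against 17.4, 19.9 and 17.7 FPKM in control. Its fold change was 1.010 (95% interval 0.899 to 1.13, edgeR adjusted p = 0.946). Col4a3, Col4a4 and Col4a6, known from the same specialised membranes, averaged 0.0352, 0.0347 and 0.012 FPKM over the 6 libraries. Col4a1 and Col4a2 also overlap antisense genes, Gm15418 and Gm15419, listed at 0.428 and 0.549 FPKM on average. Whether the counting used the strand is not known, so how it assigned reads in these overlaps is not known either.

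The type IV genes lie in head-to-head pairs, and the partners were alike in level in 2 of the 3 pairs. The annotated ends of Col4a1 and Col4a2 share 22 bases on opposite strands of chromosome 8, and the ratio of their FPKM, Col4a1 over Col4a2, was 1.10, 1.25 and 1.13 with mitochondria, against 1.03, 1.18 and 1.23 in control. Col4a4 and Col4a3, on chromosome 1, start 71 bases apart and were both near 0. Col4a6 and Col4a5 start 1308 bases apart on the X chromosome, with Col4a6 near 0 and Col4a5 at 18.5 FPKM on average. The stretch between the starts of the near-silent pair is shown in its plus strand in GRCm38 (chr1:82586850-82586920), read from the RefSeq promoter table, as the shortest region between a pair of collagen starts.
Col4a4/Col4a3: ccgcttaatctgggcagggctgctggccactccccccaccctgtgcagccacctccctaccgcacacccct
It holds neither the CCAAT box, nor the GC box GGGCGG, nor the TATA letters TATAAA on either strand, so no letter is capitalised.

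Of the fibrillar genes, 4 were expressed at over 10 FPKM, among them Col1a1 without its usual partner. Col3a1 (ENSMUSG00000026043, chromosome 1, 45311538 to 45349706), the fibrillar collagen of distensible tissues such as the vessel wall, had 43.9, 59.5 and 39.4 FPKM in the mitochondria libraries, against 46.6, 78.3 and 39.1 FPKM in the control libraries. Control replicate 2 was 2.0-fold above the lowest control library, while the mitochondria libraries lay inside the control range. The fold change was 0.863 (95% interval 0.536 to 1.39, edgeR adjusted p = 0.789), on a scale where 1 is no difference. Without control replicate 2 its log2 fold change was 0.14 in place of -0.21. A predicted microRNA gene, Gm47302, lies within Col3a1 on the same strand and was listed at 237.5 FPKM on average, and how the counting split their reads is not known, so the level of Col3a1 is uncertain.

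Col1a1 (ENSMUSG00000001506, chromosome 11, 94936224 to 94953042), the main chain of type I collagen in bone and skin, had 20.02, 24.79 and 18.50 FPKM in the mitochondria libraries, against 17.65, 29.40 and 16.96 FPKM in the control libraries. The groups overlapped, with a fold change of 0.980 (95% interval 0.663 to 1.45, edgeR adjusted p = 0.971). Its partner Col1a2 (ENSMUSG00000029661, chromosome 6, 4504814 to 4541544) had only 31, 21 and 26 counts with mitochondria, against 16, 37 and 28 counts in control, a mean of 0.0258 FPKM. Col1a1 exceeded Col1a2 by 569.6 to 1302-fold in FPKM within a library, in the mitochondria and in the control group alike. The classical type I helix joins both chains.

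The chains of type V collagen, which nucleates fibrils, differed less. Col5a1 (chromosome 2, 27886425 to 28039514) had 45.3, 51.7 and 44.4 FPKM in the mitochondria libraries, against 42.0, 50.6 and 41.0 FPKM in the control libraries. Col5a2 (chromosome 1, 45374321 to 45503282) had 12.7, 13.8 and 12.2 FPKM in the mitochondria libraries, against 12.5, 16.1 and 12.7 FPKM in the control libraries. The 2 genes leaned opposite ways, with fold changes of 1.05 for Col5a1 (95% interval 0.885 to 1.24) and 0.929 for Col5a2 (95% interval 0.775 to 1.11), and edgeR adjusted p-values of 0.809 and 0.717. Their ratio, Col5a1 over Col5a2, was 3.57, 3.76 and 3.62 with mitochondria, against 3.35, 3.15 and 3.23 in control. All mitochondria libraries were above all control libraries, and the ratio was not tested.

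Upstream sequences of both most abundant fibrillar genes with a RefSeq promoter entry are shown because their base composition marks the extremes among the collagens. Each is the 250 bases before the RefSeq start site in GRCm38.p6, plus strand, at chr1:45311288-45311537 for Col3a1 and chr2:27886175-27886424 for Col5a1. Capitals mark the CCAAT box, the GC box GGGCGG and the TATA letters TATAAA, or their reverse complements.
Col3a1: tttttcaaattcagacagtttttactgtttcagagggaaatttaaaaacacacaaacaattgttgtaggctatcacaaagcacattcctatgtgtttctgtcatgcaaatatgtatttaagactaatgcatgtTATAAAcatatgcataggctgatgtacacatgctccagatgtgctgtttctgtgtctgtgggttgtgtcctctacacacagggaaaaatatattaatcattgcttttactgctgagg
Col5a1: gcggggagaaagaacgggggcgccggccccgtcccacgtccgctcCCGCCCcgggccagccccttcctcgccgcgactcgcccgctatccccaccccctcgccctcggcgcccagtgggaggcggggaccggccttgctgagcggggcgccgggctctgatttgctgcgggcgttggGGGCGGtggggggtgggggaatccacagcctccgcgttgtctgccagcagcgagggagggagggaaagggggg
The Col3a1 window was 35.2% G and C with 0 CpG pairs, the lowest GC share among the 35 collagen genes with an entry, and the Col5a1 window was 76.4% G and C with 28 CpG pairs, the highest. GGGCGG was present on either strand in 8 of the 11 tested collagens with an entry and in 13 of the 24 others, against 32.7% of all 32851 promoter windows of this length. TATAAA was present in 1 of the 11 and 4 of the 24, against 12.4% of all windows, and CCAAT in 5 of the 11 and 7 of the 24, against 33.8%. The median GC share was 62.0% in the tested collagens, 57.8% in the others and 52.4% in all windows. A match describes letters only and is no evidence of binding.

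Type VI collagen, which forms beaded filaments around cells from 3 different chains, was present as Col6a1 and Col6a2 with little of their partner chain. Col6a1 (chromosome 10, 76708792 to 76726168) had 55.9, 61.8 and 54.9 FPKM in the mitochondria libraries, against 52.4, 57.4 and 50.5 FPKM in the control libraries. Its neighbour Col6a2 (chromosome 10, 76595762 to 76623630) had 18.8, 20.9 and 18.2 FPKM in the mitochondria libraries, against 18.5, 19.0 and 16.2 FPKM in the control libraries. Both had a fold change of 1.07, with 95% intervals of 0.950 to 1.20 for Col6a1 and 0.930 to 1.23 for Col6a2, and their groups overlapped (edgeR adjusted p = 0.608 and 0.658). The ratio of Col6a1 to Col6a2 was 2.96 to 3.02 with mitochondria and 2.84 to 3.13 in control. Col6a3, whose chain completes the usual type VI helix, averaged 0.794 FPKM and so was not tested. The ratio of Col6a3 to Col6a1, chosen after its values were seen, was 0.0143, 0.0198 and 0.0161 with mitochondria, against 0.0131, 0.0115 and 0.0102 in control, and these groups did not overlap either.

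Outside these classes, the collagen with the smallest p was Col16a1 (chromosome 4, 130047840 to 130099283), a FACIT collagen that binds to other matrix fibres. It had 14.58, 14.37 and 13.47 FPKM in the mitochondria libraries, against 12.03, 13.36 and 11.51 FPKM in the control libraries. All mitochondria libraries were above all control libraries in FPKM, though not in CPM, where mitochondria replicate 3 at 101.3 fell just below control replicate 2 at 101.8. The fold change was 1.14 (95% interval 1.01 to 1.28), with an unadjusted p of 0.0332 and an edgeR adjusted p of 0.348. The FACIT gene Col12a1 had 3.70, 4.09 and 3.63 FPKM with mitochondria, against 3.73, 5.76 and 2.93 FPKM in control. Col14a1, also of that group, had 1.014, 1.143 and 0.705 FPKM with mitochondria, against 0.908, 1.39 and 1.11 FPKM in control. In both the groups overlapped, with fold changes of 0.912 and 0.831 (edgeR adjusted p = 0.847 and 0.659).

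Col8a1 (chromosome 16, 57624258 to 57754737) had the largest fold change in either direction among the tested collagens. It encodes a network-forming collagen known from the vessel wall and from the basement membrane of corneal endothelium. It had 18.9, 20.1 and 17.7 FPKM in the mitochondria libraries, against 21.7, 30.4 and 20.6 FPKM in the control libraries. Every mitochondria library was below every control library, and control replicate 2 stood apart from the other controls. The fold change was 0.774 (95% interval 0.600 to 0.998), with an unadjusted p of 0.0484 and an edgeR adjusted p of 0.380. Without control replicate 2 the log2 fold change was -0.17 in place of -0.37. Its usual partner Col8a2 was near 0, at 0.0113 FPKM on average.

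The 250 bases before the RefSeq start sites of the genes with the smallest p are given in GRCm38.p6 on the gene's own strand, with the same letters capitalised. They lie at chr16:57754738-57754987 on the minus strand for Col8a1 and chr4:130047590-130047839 on the plus strand for Col16a1, and 113 bases of the Col16a1 window fall in an exon of the predicted gene Gm12963.
Col8a1: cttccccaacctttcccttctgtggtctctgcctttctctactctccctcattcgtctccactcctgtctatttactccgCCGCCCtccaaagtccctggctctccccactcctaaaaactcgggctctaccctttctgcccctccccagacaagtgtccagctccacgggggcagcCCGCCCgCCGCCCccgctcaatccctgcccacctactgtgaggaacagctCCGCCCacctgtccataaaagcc
Col16a1: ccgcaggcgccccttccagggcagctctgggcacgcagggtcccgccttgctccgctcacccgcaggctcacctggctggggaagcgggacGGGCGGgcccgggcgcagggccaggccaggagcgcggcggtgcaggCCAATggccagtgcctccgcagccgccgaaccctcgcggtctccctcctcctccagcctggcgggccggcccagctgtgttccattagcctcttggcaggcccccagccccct
The Col8a1 window held GGGCGG only as its reverse complement CCGCCC, and the Col16a1 window held a GC box and a CCAAT box.

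The remaining tested collagens were Col18a1, the basement membrane collagen whose end piece is endostatin, and the transmembrane Col23a1. Col18a1 had 8.39, 7.54 and 7.52 FPKM with mitochondria, against 7.55, 7.57 and 7.39 FPKM in control, a fold change of 1.03 (95% interval 0.934 to 1.14, edgeR adjusted p = 0.784). Col23a1 had 1.32, 1.08 and 1.07 FPKM with mitochondria, against 1.12, 0.983 and 1.10 FPKM in control, a fold change of 1.07 (95% interval 0.860 to 1.34, edgeR adjusted p = 0.783).

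Across the 15 tested collagens none passed the threshold with added mitochondria. The edgeR test called 0 of 15 at an adjusted p under 0.05, against 0.164% of all 12774 genes tested (21 genes, with 0.0626% higher and 0.102% lower), and so did DESeq2, which called 2.79% of genes, and limma on log2(FPKM + 1), which called 0.133%. At an unadjusted p under 0.05 edgeR had 2 collagens, Col16a1 and Col8a1, where 13.0% of all tested genes had such a p. The groups did not overlap in FPKM for the same 2 genes, against 21.3% of all tested genes (12.3% higher and 9.03% lower). Fold changes ran from 0.774 to 1.14, and the widest 95% intervals, which are for single genes and not adjusted, reached down to 0.536 for Col3a1 and up to 1.45 for Col1a1. On simulated data of this design edgeR recovered 69.2% of genes changed 2-fold and 37.7% of those changed 1.5-fold. These genes were drawn from all tested genes, not from collagens. A collagen changed 1.5-fold could thus have gone uncalled. The single-gene intervals of the collagens stopped short of a 1.5-fold rise, while that of Col3a1 reached beyond a fall of that size.

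By class, the 3 type IV genes had a median log2 fold change of 0.023, the 2 type VI genes 0.095, the 4 fibrillar genes -0.067 and the 3 FACIT genes -0.13. Of the 15 genes 9 were above 0 and 6 below, with a median of 0.023, beside 49.6% above 0 and a median of -0.0016 over all tested genes. The 3 type IV and both type VI genes were above 0, while 3 of the 4 fibrillar genes were below it. These signs were not stable, since without control replicate 2 all 4 fibrillar genes were above 0 and without mitochondria replicate 2 all 3 type IV genes were below it. The FACIT median was 0.18 without control replicate 2, and 0.19 with no filter, with filterByExpr and at a mean FPKM of at least 5.

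**Figure D3:**
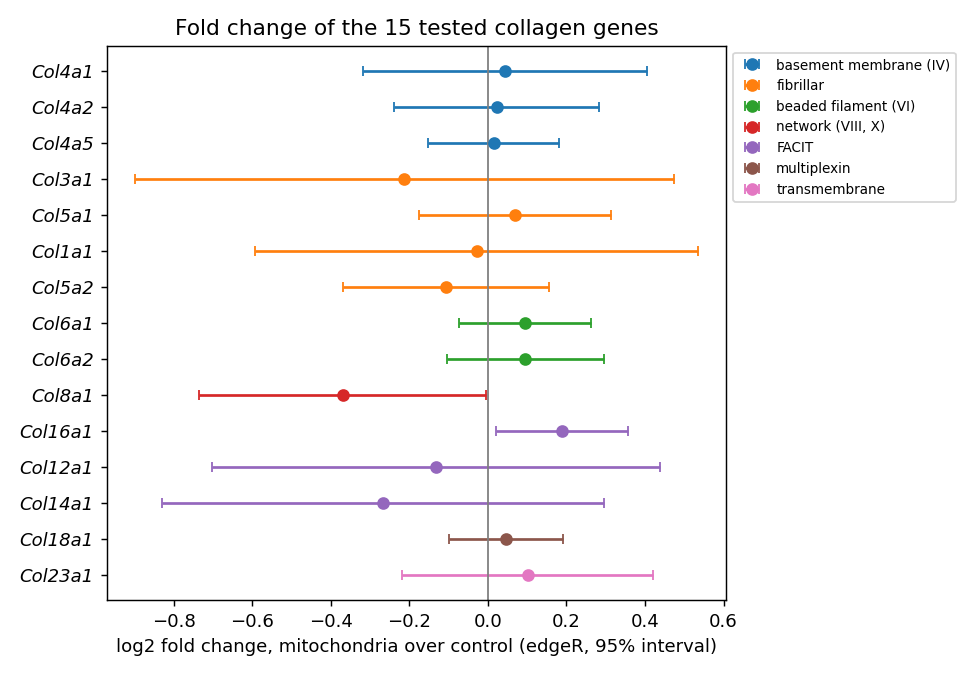
Log2 fold change of each tested collagen gene, mitochondria over control, with its 95% interval from the edgeR fit, coloured by class. The intervals of Col8a1 and Col16a1 alone stop short of 0, and neither gene passed after adjustment.

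Most collagens were highest in the same numbered library of both groups. In 12 of the 15 tested collagens replicate 2 was the highest library in both groups, a pattern that 15.8% of all tested genes had. The exceptions were Col16a1, Col18a1 and Col23a1. Among the 12, mitochondria replicate 2 was 1.09-fold (Col4a5) to 1.43-fold (Col3a1) above the mean of the other mitochondria libraries. Control replicate 2 was 1.10-fold (Col6a2) to 1.83-fold (Col3a1) above the mean of the other control libraries. Type IV genes were 1.09-fold to 1.28-fold above with mitochondria and 1.13-fold to 1.31-fold in control, and fibrillar genes 1.10-fold to 1.43-fold and 1.22-fold to 1.83-fold.

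Markers of other cell types were not uniform in this order. The summed level of the 10 fibroblast and mural markers was 29.9, 34.9 and 27.5 FPKM with mitochondria, against 30.6, 43.5 and 27.8 FPKM in control, highest in replicate 2 of both groups. Most of that order came from Pdgfrb, a receptor of mural cells and fibroblasts, with 14.3, 18.4 and 12.2 FPKM in the mitochondria libraries, against 15.5, 26.7 and 13.1 FPKM in the control libraries. Pdgfra, its fibroblast relative, had 14.2, 14.8 and 13.6 FPKM with mitochondria, against 13.8, 13.7 and 13.3 FPKM in control, where replicate 2 was not the highest. Acta2, a smooth muscle actin, was highest in replicate 3 with mitochondria and in replicate 2 in control. Among the endothelial markers Eng was highest in replicate 2 of both groups, at 58.7, 62.2 and 58.3 FPKM with mitochondria, against 68.7, 78.3 and 62.8 FPKM in control. Flt1, a receptor for VEGF, was lowest there, at 33.2, 30.5 and 36.4 FPKM with mitochondria, against 28.0, 21.8 and 28.3 FPKM in control. Ly6c1 was lowest there too, at 18.4, 13.0 and 16.4 FPKM with mitochondria, against 12.4, 9.38 and 14.1 FPKM in control. So was Tie1, at 7.01, 6.58 and 7.04 FPKM with mitochondria, against 5.66, 4.81 and 5.72 FPKM in control. No other listed endothelial marker averaged 1 FPKM. The 10 osteocyte-lineage markers summed lowest in replicate 2 too, at 19.2, 15.7 and 21.9 FPKM with mitochondria and 20.5, 13.75 and 23.0 FPKM in control. Replicate 2 was the middle mitochondria library in depth, at 69534061 counts, and the deepest control library, at 73376834 counts. The part of these markers and of depth in the collagen values was not tested.

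**Figure D4:**
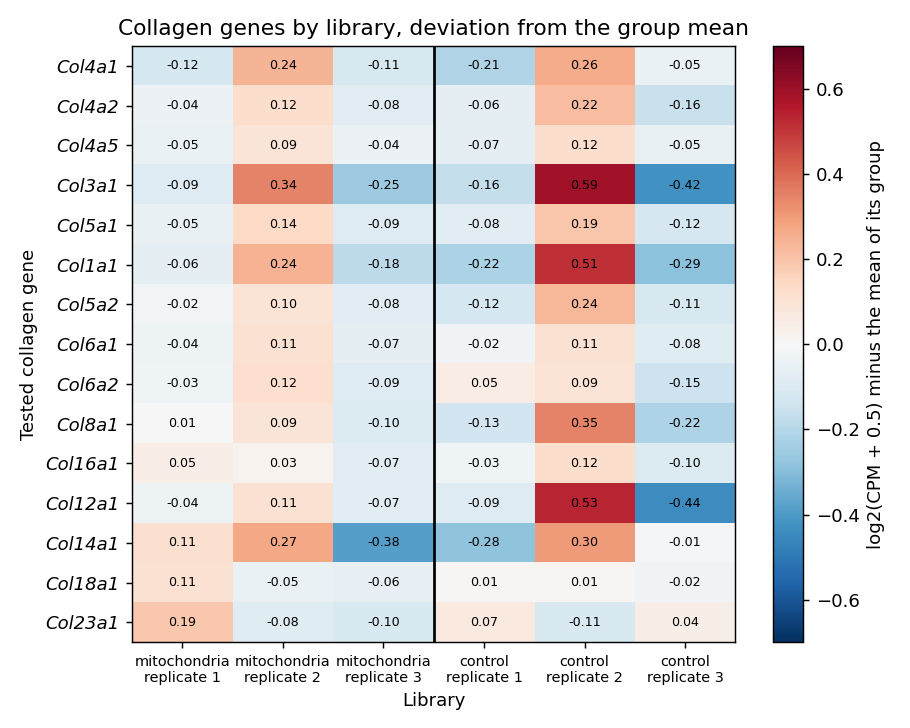
Deviation of each tested collagen gene from the mean of its own group, as log2(CPM + 0.5), in the 3 mitochondria libraries and the 3 control libraries. Red cells lie above the group mean, and replicate 2 is the highest library of both groups in 12 of the 15 genes, most of all for Col3a1, Col12a1 and Col1a1 in control.

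With the replicate number as a block, which takes out spread shared by same-numbered libraries, edgeR called 0 of 15 collagens. It called 0 of all 12774 tested genes too, so this count is no result about collagens. At an unadjusted p under 0.05 the block fit had 3 collagens, and the share of all genes was not computed. The smallest edgeR adjusted p of a collagen in that fit was 0.236, shared by Col8a1 and Col16a1, and Col6a1 followed at 0.266.

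Among the 21 lowly expressed collagens, 12 had more than 12 counts in every library. In 2 of these the groups did not overlap, and both were named after their values were seen. Col5a3, a minor chain of type V collagen, had 0.581, 0.489 and 0.458 FPKM in the mitochondria libraries, against 0.292, 0.351 and 0.260 FPKM in the control libraries. Col6a3 had 0.798, 1.22 and 0.882 FPKM in the mitochondria libraries, against 0.685, 0.661 and 0.515 FPKM in the control libraries. Each mitochondria library was above each control library, which 12.3% of all tested genes also showed in this direction. That share covers genes with a mean of at least 1 FPKM, a level that Col5a3 and Col6a3 did not reach. With the looser filter of edgeR's filterByExpr their log2 fold changes were 0.74 ± 0.191 for Col5a3 and 0.63 ± 0.198 for Col6a3 (± SE), with unadjusted p of 0.00649 and 0.0163 and adjusted p of 0.347 and 0.392. Neither passed. Counts of Col5a3 were low, 229 to 313 with mitochondria against 131 to 199 in control. Those of Col6a3 were 757 to 1142 with mitochondria against 454 to 664 in control. For comparison, the tested Col23a1 and Col14a1 had 449 to 598 and 363 to 807 counts over the 6 libraries.

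No gene of collagen modification, folding and export passed the edgeR threshold. Of 22 tested genes for hydroxylation, folding and export 16 were above 0, with a median log2 fold change of 0.12, beside the -0.0016 of all tested genes. The edgeR test called 0 of them at an adjusted p under 0.05, with 6 at an unadjusted p under 0.05, where 0.164% of all tested genes were called and 13.0% had such a p. DESeq2 called 3 of them, all higher, where it called 1.59% of genes higher. With the replicate block edgeR called 0 of them, as it did of all tested genes. In FPKM the groups did not overlap for 6 higher genes and 1 lower gene, against 12.3% higher and 9.03% lower of all tested genes.

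The prolyl hydroxylase subunit gene P4ha2, which makes collagen prolines fit for a stable helix, had 13.7, 13.1 and 13.4 FPKM in the mitochondria libraries, against 10.1, 8.81 and 10.2 FPKM in the control libraries. The groups were well apart, at 1.37-fold (95% interval 1.22 to 1.53, edgeR adjusted p = 0.128, DESeq2 adjusted p = 1.2e-05). P4ha1, its paralogue, had 47.3, 48.5 and 46.0 FPKM with mitochondria, against 40.7, 39.7 and 40.5 FPKM in control, 1.16-fold (edgeR adjusted p = 0.187, DESeq2 adjusted p = 0.00175). P4hb, the shared partner subunit and a disulfide isomerase, had 541.6, 552.8 and 555.6 FPKM with mitochondria, against 507.6, 484.1 and 496.9 FPKM in control, 1.10-fold (edgeR adjusted p = 0.292). The lysyl hydroxylase gene Plod1, named after its values were seen, was 1.18-fold (edgeR adjusted p = 0.187, DESeq2 adjusted p = 0.00357). Serpinh1, which encodes the collagen chaperone HSP47, had 168.4, 194.7 and 177.4 FPKM with mitochondria, against 168.1, 159.2 and 97.8 FPKM in control. Its groups were apart by little in FPKM and overlapped in CPM, with control replicate 3 far below the others (1.26-fold, edgeR adjusted p = 0.528). Without control replicate 3 its log2 fold change was 0.12 in place of 0.33.

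**Figure D5:**
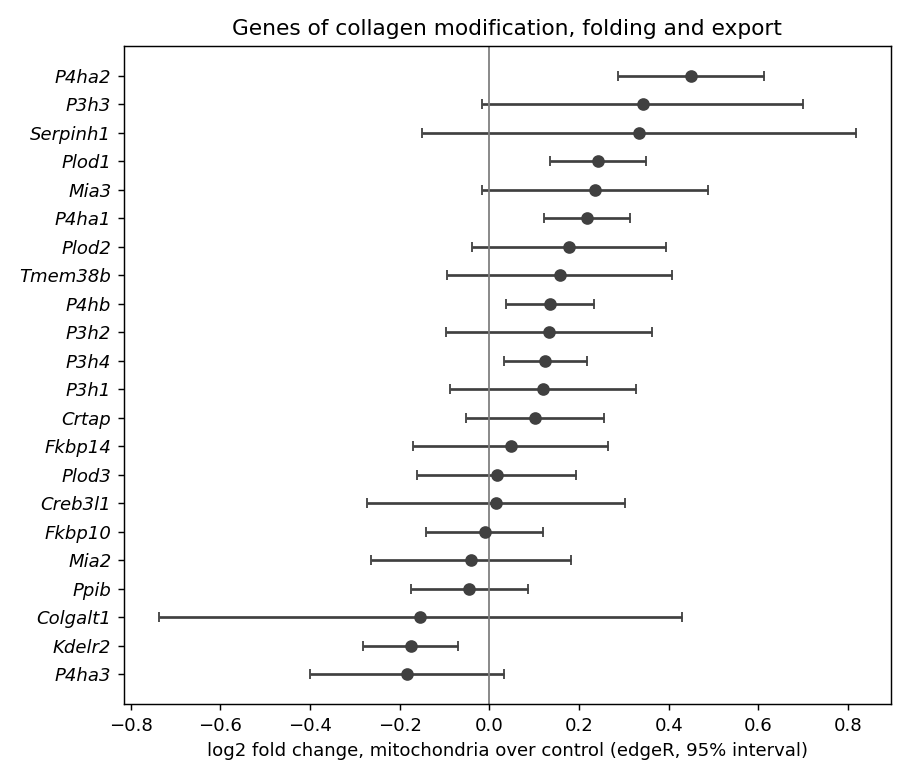
Log2 fold change of the 22 tested genes of collagen modification, folding and export, mitochondria over control, with 95% intervals from the edgeR fit. P4ha2 lies furthest to the right, at 0.45, and 16 of the 22 points lie above 0.

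The genes that trim, cross-link, degrade and bind collagen gave 0 calls by edgeR, DESeq2, limma or the block. These fits called 0.164%, 2.79%, 0.133% and 0% of the genes they tested, so 0 calls in lists this short says little. The counts of these lists at an unadjusted edgeR p under 0.05 stand beside 13.0% of all tested genes. Of 9 tested genes for trimming and cross-linking 5 were above 0, at a median log2 fold change of 0.035, with 2 at an unadjusted p under 0.05. Loxl2, a lysyl oxidase that cross-links type IV collagen among others, had 65.0, 70.1 and 68.2 FPKM with mitochondria, against 58.4, 59.9 and 53.2 FPKM in control. Pcolce, an enhancer of procollagen trimming, had 151.3, 166.6 and 145.0 FPKM with mitochondria, against 173.1, 201.7 and 165.3 FPKM in control. The groups were apart for Loxl2 (1.17-fold), as they were in this direction for 12.3% of all tested genes in FPKM. They overlapped for Pcolce (0.850-fold), and the edgeR adjusted p was 0.251 for Loxl2 and 0.365 for Pcolce.

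Of 14 tested genes of collagen breakdown and its inhibitors 8 were above 0, at a median log2 fold change of 0.038, with 2 at an unadjusted p under 0.05. The inhibitor gene Timp1 had 55.5, 55.4 and 57.7 FPKM with mitochondria, against 46.7, 41.8 and 51.8 FPKM in control (1.19-fold, edgeR adjusted p = 0.305). Timp3, its matrix-bound relative, had 10.1, 9.07 and 10.7 FPKM with mitochondria, against 11.1, 11.5 and 10.7 FPKM in control (0.891-fold, edgeR adjusted p = 0.383). The most abundant members were Ctsb, a lysosomal protease, and Timp2, whose fold changes were 1.02 and 0.943 (edgeR adjusted p = 0.858 and 0.758).

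Of 5 tested collagen receptor genes 2 were above 0, with 0 at an unadjusted p under 0.05. Ddr2, a receptor tyrosine kinase for fibrillar collagen, fell into separate levels that crossed the groups, at 48.1, 51.3 and 18.0 FPKM with mitochondria, against 18.7, 51.3 and 17.8 FPKM in control. Its fold change of 1.33 had a 95% interval of 0.530 to 3.31 (edgeR adjusted p = 0.791), and leaving out single libraries moved its log2 value between 0.15 and 1.09, the highest without control replicate 2. Itgb1, Ddr1 and Itga1, which encode the common integrin beta chain, a second receptor kinase and a collagen-binding integrin chain, had fold changes of 0.988, 1.003 and 0.940 (edgeR adjusted p = 0.890, 0.983 and 0.784).

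Of 7 tested matrix partners of collagen 5 were above 0, at a median log2 fold change of 0.042, with 2 at an unadjusted p under 0.05. Fibronectin, encoded by Fn1, had 62.6, 62.7 and 60.9 FPKM with mitochondria, against 56.5, 55.5 and 51.1 FPKM in control (1.13-fold, edgeR adjusted p = 0.279). Tnxb, which encodes tenascin-X, had 5.01, 4.71 and 5.52 FPKM with mitochondria, against 4.49, 3.30 and 4.36 FPKM in control (1.24-fold, edgeR adjusted p = 0.378). In both all mitochondria libraries were above all control libraries, which 12.3% of all tested genes also showed in FPKM. The abundant Thbs2 and Sparc, a matrix thrombospondin and a collagen-binding glycoprotein, had fold changes of 1.051 and 1.004 (edgeR adjusted p = 0.789 and 0.988), and replicate 2 was the highest library of each group for both.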

How the data were processed

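Stranded mRNA libraries of 6 samples (kit per the labels) are held in 1 deposited table. The deposited FPKM values and estimated counts are named so per the file headers, and, per the submitters' processing notes, the processing involved build GRCm38 with StringTie 2.1.6, HISAT2 2.2.1, edgeR, DESeq2 and cutadapt 1.9, whose roles are not stated. Annotation release and strand setting: not given in the sources used here. All deposited estimated counts are whole, and 36.6% of those from 1 to 20 are multiples of 4 against 25% if even, so the floor was 12 counts. Genes with a count of 0 are listed by the authors at 0.0001 FPKM, taken here as 0.

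Genes with a mean FPKM of at least 1 (12774) were fitted with edgeR 4.0.16 (quasi-likelihood F-test, TMM, R 4.3.3), with Benjamini-Hochberg adjustment over all of them. DESeq2 1.42.0, limma 3.58.1 and other settings were alternatives, and the fit was tested on simulated data. Standard errors come from the F statistic. Collagen members and lists were chosen with earlier results of these data known, so no set test was run. Named genes were the 2 most abundant tested members of each class, the 12 collagens with the smallest p, and in each other list the 2 with the smallest p and the 2 most abundant. Col1a1 and Col4a5 fall outside this rule and were named with their values known, to describe every tested collagen. Same-numbered libraries deviated together from their group means (correlation across genes 0.150, 0.172 and 0.266 for replicates 1, 2 and 3). Libraries of unlike number had correlations of -0.223 to 0.0595. The numbers were therefore treated as pairs, a match drawn from these same data, in a fit with the replicate block. The labels state no such pairing. Promoter sequences are RefSeq's (GRCm38.p6), with entries matched for 35 of 44 genes.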

Additional observations from a re-analysis of the deposited data

How the results depend on the processing

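No collagen gene was called under any of 18 other settings, with a lowest adjusted p of 0.215 (Col8a1, DESeq2). Over all tested genes 21 calls became 356 with DESeq2, 8 at a mean FPKM of at least 5 and 0 with the replicate block, and 1 to 27 when single libraries were left out, with 1 without control replicate 1 and 12 without control replicate 3. The 0 calls among genes of collagen modification and export became 3 with DESeq2, among them P4ha2 (log2 fold change 0.45) and P4ha1 (0.22). Since the replicate block left 0 calls over all tested genes, it could not change the 0 calls among the genes named.

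Directions of small differences turned when libraries were left out. The log2 fold changes then ranged from -0.17 to 0.27 for Col1a1, -0.41 to 0.14 for Col3a1, -0.33 to 0.18 for Col12a1, -0.17 to 0.022 for Col5a2, -0.0037 to 0.17 for Col5a1, -0.085 to 0.18 for Col4a1, -0.053 to 0.14 for Col4a2, -0.031 to 0.078 for Col4a5, -0.0100 to 0.080 for Col18a1 and -0.0067 to 0.16 for Col23a1. They ranged from -0.0033 to 0.063 for Ctsb, -0.16 to 0.011 for Timp2, -0.043 to 0.068 for Ddr1, -0.21 to 0.012 for Itga1, -0.041 to 0.011 for Itgb1, -0.071 to 0.12 for Sparc and -0.014 to 0.16 for Thbs2. Col1a1 also turned above 0 with the replicate block (0.0076) and with limma at a pseudocount of 1 (0.018), 0.1 (0.020) and 0.5 (0.019). Of 267 single-gene values of collagens 246 kept their direction and 21 turned.

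Other filters changed which members were counted. The multiplexin median was 0.17 with no filter and 0.17 with filterByExpr, in place of 0.046, and the transmembrane median 0.48 and 0.29, in place of 0.10. The FACIT median turned from -0.13 to 0.19 with either filter and at a mean FPKM of at least 5, and to 0.18 without control replicate 2.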
